A study of Mus musculus with 6 samples.

Results

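The genes described here make, sense and handle cholesterol. They are the 31 mouse genes of the sterol regulatory pathway, the mevalonate and sterol synthesis enzymes, and the proteins that move, export from lysosomes or esterify cholesterol, each found by its symbol among the 22488 genes of every count table. All 31 were present once and all 31 passed the filter on low counts. RNA was sequenced from whole livers of wild-type male C57BL/6 mice aged 6 to 8 weeks and kept on standard chow. Every animal was fasted for 16 h. The control group (n = 3) was injected into the abdominal cavity with 200 µl of HBSS, a balanced salt buffer, although another label of the same samples gives no treatment. The LPS group (n = 3) was given 6 mg/kg of lipopolysaccharide, a cell wall endotoxin of Gram-negative bacteria, also into the abdominal cavity. The sources used here do not give the time between injection and sampling, and nothing says how many mice stood behind each library. The p values therefore measure only the spread between these 6 samples.

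Cholesterol is built from acetyl-CoA through mevalonate, the isoprenoids, squalene and lanosterol. The cell controls this through SREBP-2, the product of Srebf2, a transcription factor held in the endoplasmic reticulum membrane. When sterols are scarce, the escort protein Scap carries it to the Golgi, where proteases free the part that enters the nucleus, and when sterols are plentiful the Insig proteins keep Scap in place. The liver is a main site of this synthesis, and fasting is known to lower it.

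Libraries held 11488525 to 20282004 counted reads, of which the 31 genes took 0.136 to 0.226%. Values below are counts normalised to library size (CPM), and a log2 fold change is the LPS level over the control level, given with its standard error (SE). Adjusted p values come from edgeR's quasi-likelihood test, 2-sided, with Benjamini-Hochberg adjustment over 12078 genes, and a gene is said to rise or fall where this value was under 0.05. Hepatocyte genes, which define the labelled tissue, were abundant in every library. In the same libraries 8 of 10 hepatocyte markers and 8 of 9 tested Kupffer cell markers fell, beside 31% of all tested genes. Meanwhile 9 of 9 tested neutrophil markers and 6 of 8 tested monocyte markers rose, beside 31.3%. Of 10 sinusoidal endothelium markers 5 fell and 2 rose, and of 10 stellate cell markers 6 fell and 1 rose. Of 5 tested biliary markers 4 rose and 1 fell. The summed level of the hepatocyte markers ran from 111900 to 125100 CPM in controls and from 72150 to 98460 CPM in LPS livers. In whole tissue, fewer cells of a type and less RNA per cell cannot be told apart, and the part of cell composition in the results below was not tested. Of 6 markers of steroid-producing tissue, which also uses these genes, Hsd3b1 and Mc2r, named after their values were seen, were at 0 in all libraries, and the 6 together reached at most 4.605 CPM.

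The pathway did not move as a block. Of the 31 genes 23 (74.2%) were called, beside 62.3% of all tested genes. Of the 31, 10 (32.3%) rose and 13 (41.9%) fell, beside 31.3% of all tested genes that rose and 31% that fell. The median log2 fold change of the 31 genes was -0.18, and that of all tested genes was 0.01. The 2 groups did not overlap in 10 genes that were higher and 12 that were lower after LPS, beside 34% and 33.4% of all tested genes and 67.4% in either direction. Of the 31 genes 7 (22.6%) were called and differed at least 2-fold, beside 34.2% of all tested genes. Among the 20 synthesis enzymes 7 rose, 8 fell and 5 were not called. Without control replicate 2 the risers among the 31 genes numbered 6 instead of 10. Exons of 12 of the 31 genes overlap those of another annotated gene, and 5 have near-identical copies elsewhere, which bears on how firmly their reads are assigned. The copies cover 76.8% of the transcript of Fdps, 65.6% of Acat2, 33.7% of Fdft1, 22.6% of Idi1 and 21.3% of Ggps1.

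**Figure D1:**
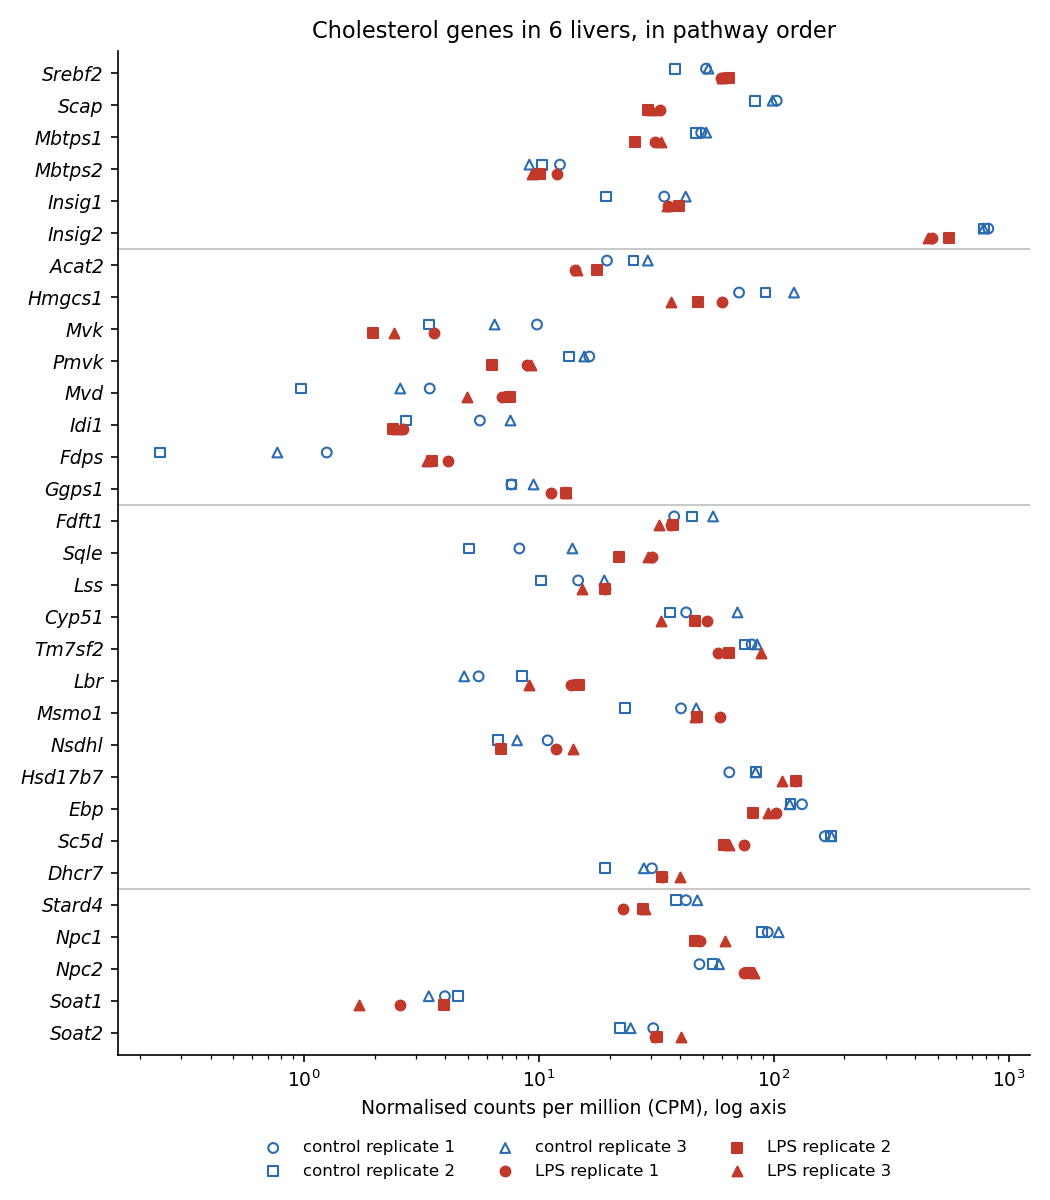
Normalised counts in CPM (log axis) of the 31 genes in each of 3 control livers (open blue symbols) and 3 LPS livers (filled red symbols), in pathway order, with grey lines between the 4 role groups. The LPS values of Scap, Sc5d and Npc1 lie wholly below the control values, those of Sqle, Fdps and Mvd wholly above, and those of Insig1, Cyp51 and Lss overlap them.

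Among the sensing genes, the escort Scap fell most and the transcription factor itself did not fall. Scap (chromosome 9, 110333288 to 110384950 on GRCm38) stood at 103, 83.5 and 98.9 CPM in control replicates 1 to 3 and at 32.9, 29.2 and 30.2 CPM in the LPS livers. Every LPS liver thus lay below every control liver, a 3.09-fold fall (log2 fold change -1.63, SE 0.13, adjusted p = 1.269e-07). It held in all 14 alternative settings, from -1.74 to -1.57. A non-coding gene on the opposite strand shares 13.2% of the Scap exon bases, and the sources used here do not say whether the counting used strand. Srebf2 had 51.5, 37.9 and 52.7 CPM in controls and 59.7, 64.7 and 60 CPM in LPS livers. The groups did not overlap, and the rise was 1.3-fold (log2 fold change 0.38, SE 0.14, adjusted p = 0.0305). This call rested on control replicate 2, the lowest liver, without which the change was 0.21 (adjusted p = 0.2015). It also ended without LPS replicate 1 or 2 and by library totals alone.

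The 2 proteases that cut SREBP-2 gave different calls, and the difference between them was not tested. Mbtps1, the site-1 protease that makes the first cut, went from 49.2 ± 2.36 to 30 ± 3.95 CPM (SD, n = 3 per group), a 1.64-fold fall with no overlap (log2 fold change -0.71, SE 0.13, adjusted p = 3.259e-04). Mbtps2, the site-2 protease, which makes the second cut within the membrane, was at 10.6 ± 1.62 and 10.5 ± 1.39 CPM. Its log2 fold change was -0.01 (SE 0.20, adjusted p = 0.957), and its sign changed in 3 of the fits that left out a library. In the annotation used here Mbtps2 shares 28.4% of its exon bases with Yy2, which was listed at 0 in all 6 libraries.

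The retention proteins stood at very different levels. Insig2 was by far the most abundant of the 31 genes per exon length, at 628 ± 22.3 counts per kb of exon (scaled to the same total in each library, like TPM) in control livers, against 28.5 ± 11.2 for Insig1. As background, Insig1 is itself a target of SREBP-2, whereas a liver form of the Insig2 transcript is raised by fasting. Insig2 (chromosome 1, 121304353 to 121332589) had 820, 785 and 783 CPM in controls and 471, 558 and 456 CPM after LPS, with a wide gap between the groups. It fell 1.61-fold (log2 fold change -0.69, SE 0.13, adjusted p = 3.811e-04). Insig1 had 34.2, 19.3 and 42.2 CPM in controls and 35.4, 39.7 and 35.1 CPM after LPS. The LPS livers lay within the range of the controls, and Insig1 was not called (log2 fold change 0.21, SE 0.21, adjusted p = 0.416). Without control replicate 2 its sign changed (-0.08). The ratio of Insig2 to Insig1 per exon length was 21.3, 36.2 and 16.5 in control livers and 11.9, 12.5 and 11.6 in LPS livers, so that the groups did not overlap.

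Beside 62.3% of all tested genes called, 31% lower and 31.3% higher, all 8 enzymes of the mevalonate segment were called, 5 lower and 3 higher. The first 4 in pathway order fell, as did Idi1, whereas Mvd, Fdps and Ggps1 rose. The summed level of the 8 was 158 ± 31.1 CPM in controls and 99.7 ± 12.8 CPM in LPS livers, a sum that Hmgcs1 dominates. Without control replicate 1 the fallers numbered 3 instead of 5.

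Acat2, the cytosolic thiolase that joins 2 acetyl-CoA molecules, had 19.5, 25.3 and 29.1 CPM in controls and 14.2, 17.6 and 14.5 CPM after LPS. All LPS livers lay below all controls, a 1.6-fold fall (log2 fold change -0.68, SE 0.17, adjusted p = 0.00377). Its reads are uncertain, because 65.6% of its transcript has a copy of at least 95% identity in transcripts of Acat3 or Tcp1, and the counting rule for such reads is not stated. Acat3 also fell, from 54.2 ± 7.58 to 38.3 ± 13.3 CPM (adjusted p = 0.042), as did Tcp1, from 130 ± 8.32 to 70.5 ± 3.21 CPM (adjusted p = 1.965e-05); both were named after these copies were found. Hmgcs1 (chromosome 13, 119690379 to 119708260), which makes HMG-CoA in the cytosol and is the most abundant of these 8 enzymes, had 71.2, 92.2 and 122 CPM in controls and 60.5, 47.6 and 36.6 CPM after LPS. Both groups were spread, yet they did not overlap, and Hmgcs1 fell 1.97-fold (log2 fold change -0.98, SE 0.20, adjusted p = 7.841e-04).

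The next kinases fell too. Mvk, mevalonate kinase, had 9.82, 3.41 and 6.48 CPM in controls and 3.58, 1.97 and 2.42 CPM after LPS. Control replicate 2 lay inside the LPS range, so the groups overlapped in spite of a 2.46-fold fall (log2 fold change -1.30, SE 0.39, adjusted p = 0.00958). The call ended without control replicate 1, where the change was -0.90 (adjusted p = 0.06909). Pmvk, phosphomevalonate kinase, went from 15.1 ± 1.56 to 8.15 ± 1.59 CPM with no overlap, a 1.85-fold fall (log2 fold change -0.89, SE 0.20, adjusted p = 0.00145).

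At the last steps before squalene the directions crossed. Mvd, the decarboxylase that yields isopentenyl diphosphate, had 3.43, 0.973 and 2.57 CPM in controls and 6.99, 7.52 and 4.92 CPM after LPS. Every LPS liver exceeded every control, a 2.86-fold rise (log2 fold change 1.51, SE 0.39, adjusted p = 0.00415). Idi1, the isomerase that acts on the product of Mvd, had 5.61, 2.72 and 7.57 CPM in controls and 2.64, 2.39 and 2.5 CPM after LPS. Control replicate 2 lay just above the LPS livers, and the 2.1-fold fall (log2 fold change -1.07, SE 0.37, adjusted p = 0.0217) was lost with limma voom (-0.87, adjusted p = 0.08267). It was also lost without control replicate 1 or 3 and without LPS replicate 2 or 3, with log2 fold changes from -1.05 to -0.73.

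Fdps (chromosome 3, 89093588 to 89101959), which makes farnesyl diphosphate, showed the largest fold of the 31 genes on very few reads. Its counts were 16, 5 and 12 in controls and 48, 50 and 47 in LPS livers, or 1.25, 0.243 and 0.77 against 4.09, 3.52 and 3.35 CPM. The groups lay well apart, a 5.05-fold rise (log2 fold change 2.34, SE 0.50, adjusted p = 0.00115). The size depended on the controls, since the log2 fold change was 1.84 without control replicate 2 and 2.88 without control replicate 1, and the call held in both cases. Of the Fdps transcript 76.8% has near-identical copies in 4 other annotated genes, so its level is uncertain. In addition, Fdps shares 26.7% of its exon bases with Gm43738 on the same strand, which was listed at 0 in all libraries. Ggps1, which makes geranylgeranyl diphosphate for protein prenylation, went from 8.26 ± 1.07 to 12.5 ± 1.03 CPM with no overlap (log2 fold change 0.60, SE 0.19, adjusted p = 0.0131). Its call ended without control replicate 2 (0.52, adjusted p = 0.05773).

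**Figure D2:**
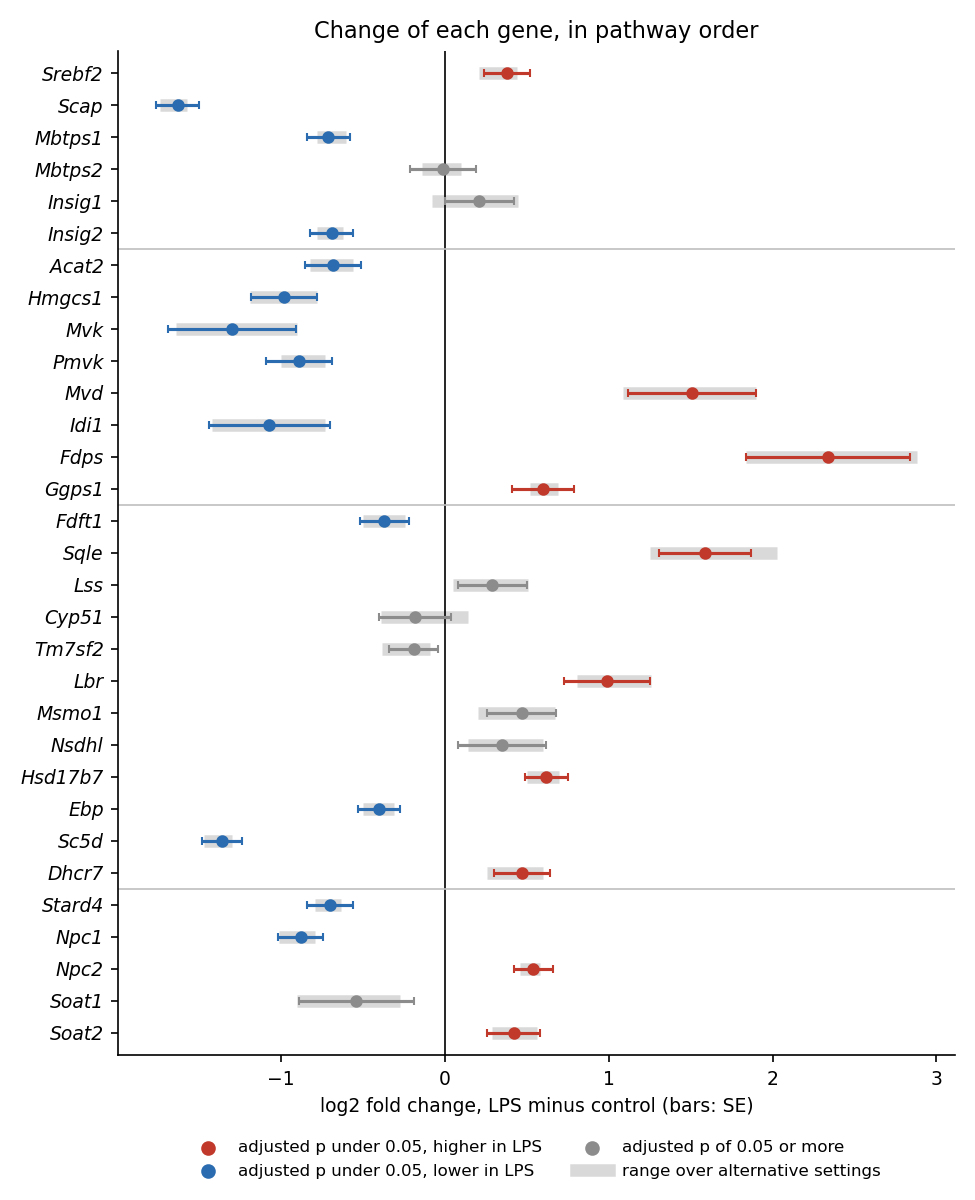
Log2 fold change (LPS minus control) of the 31 genes in pathway order, with bars of 1 SE, coloured by the edgeR call, over a grey band that spans the values in the alternative settings. The first 4 mevalonate enzymes lie left of 0 and Mvd, Fdps and Sqle right of 1, while the bands of Mbtps2, Insig1 and Cyp51 cross 0.

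Upstream sequences of enzymes that moved in opposite directions, and of Insig1, which was not called, are shown because SREBP-2 is known to act with NF-Y and Sp1 at promoters of this pathway. The 250 bases before the RefSeq start are given 5′ to 3′ on the gene's strand, and capitals mark a sterol regulatory element (TCACNCCAC), an NF-Y box (CCAAT) or an Sp1 box (GGGCGG), each on either strand. The build is GRCm38.p6, and the windows are chr13:119690101-119690350 on the plus strand for Hmgcs1, chr8:122443423-122443672 on the minus strand for Mvd and chr5:28071162-28071411 on the plus strand for Insig1.
Hmgcs1: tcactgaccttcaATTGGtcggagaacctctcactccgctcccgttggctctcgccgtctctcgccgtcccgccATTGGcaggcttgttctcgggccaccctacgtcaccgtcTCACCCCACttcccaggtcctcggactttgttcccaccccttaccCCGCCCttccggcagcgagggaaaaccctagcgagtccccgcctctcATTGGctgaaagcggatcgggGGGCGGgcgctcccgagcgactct
Mvd: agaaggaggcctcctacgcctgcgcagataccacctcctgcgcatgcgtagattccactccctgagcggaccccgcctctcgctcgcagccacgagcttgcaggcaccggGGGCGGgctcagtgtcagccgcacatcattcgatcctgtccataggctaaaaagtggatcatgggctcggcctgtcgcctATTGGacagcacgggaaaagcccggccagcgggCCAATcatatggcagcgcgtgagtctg
Insig1: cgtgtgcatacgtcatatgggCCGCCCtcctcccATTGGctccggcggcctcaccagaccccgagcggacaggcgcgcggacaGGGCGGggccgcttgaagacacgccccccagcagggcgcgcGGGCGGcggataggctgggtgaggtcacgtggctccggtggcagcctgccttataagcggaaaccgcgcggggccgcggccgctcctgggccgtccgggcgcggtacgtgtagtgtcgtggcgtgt
The Hmgcs1 window held 1 sterol regulatory element, 3 NF-Y boxes and 2 Sp1 boxes. That of Mvd held 2 NF-Y boxes and 1 Sp1 box, and that of Insig1 held 1 NF-Y box and 3 Sp1 boxes. A promoter of 300 bases, with 50 bases after the start, was at hand for 25 of the 31 genes. Of these, 21 (84%) held an NF-Y box at 1 or more starts and 22 (88%) an Sp1 box, where the shares over all 27025 genes with a promoter were 41.1% and 38.2%. Over the 9627 of those genes that were tested in the livers, the shares were 42.8% and 67.3%. The full sterol regulatory element was found in 1 of the 25 (4%), Hmgcs1, beside 1.44% of all genes and 1.41% of tested genes. With up to 1 mismatch, a setting chosen after the exact matches were seen, it was found in 10 of the 25 (40%). The shares were 26.7% of all genes and 28.9% of tested genes. These are matches of letters and do not show binding. Only these strings and windows were searched, so a missing match does not show that an element is absent. Both NF-Y and Sp1 boxes thus stood before genes that fell, such as Hmgcs1, and genes that rose, such as Mvd.

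In the segment from squalene to cholesterol 4 of 12 enzymes rose and 3 fell, beside 31.3% and 31% of all tested genes. The other 5 were not called. The median log2 fold change of the 12 was 0.32. Without LPS replicate 2 the fallers numbered 1, Sc5d. The summed level of the 12 was 649 ± 52 CPM in controls and 584 ± 29.3 CPM in LPS livers, ranges that overlapped.

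Fdft1, squalene synthase, commits farnesyl diphosphate to sterols. It had 37.7, 45 and 55.2 CPM in controls and 36.7, 37.2 and 32.6 CPM after LPS, so that control replicate 1 and LPS replicate 2 lay side by side. The 1.3-fold fall (log2 fold change -0.37, SE 0.15, adjusted p = 0.0383) was called in the main comparison and lost with DESeq2 (adjusted p = 0.05997) and in 5 of the 6 fits that left out a library, all but that without control replicate 1. Ctsb, an abundant lysosomal protease gene on the opposite strand that shares exon bases with Fdft1, had 457 ± 38.6 CPM in controls and 510 ± 37.9 CPM after LPS (adjusted p = 0.294). Without strand, reads from the shared 18.3% of Fdft1 exon bases cannot be told apart from those of Ctsb. In addition, 33.7% of the Fdft1 transcript has a near-identical copy in Gm6781.

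Sqle (chromosome 15, 59315077 to 59331192), squalene epoxidase, a rate-limiting step of the sterol segment, had 8.26, 5.06 and 13.9 CPM in controls and 30.2, 22 and 29.2 CPM after LPS. The lowest LPS liver lay well above the highest control, a 3.01-fold rise (log2 fold change 1.59, SE 0.28, adjusted p = 2.213e-04) that ranged from 1.25 to 2.03 in the alternative settings. Lss, which cyclises the epoxide to lanosterol, had 14.7 ± 4.44 and 17.8 ± 2.21 CPM (log2 fold change 0.29, adjusted p = 0.256). Cyp51, the lanosterol demethylase, had 42.4, 36.3 and 70.1 CPM in controls and 52.1, 46.3 and 33 CPM after LPS. Its groups overlapped (log2 fold change -0.18, SE 0.22, adjusted p = 0.497), and its sign changed without control replicate 3 (0.14).

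Tm7sf2 and Lbr, both sterol C14 reductases, gave different calls, and the difference between them was not tested. Lbr, which also anchors chromatin at the nuclear envelope, rose 1.98-fold, from 5.54, 8.47 and 4.81 CPM to 13.7, 14.8 and 9.12 CPM (log2 fold change 0.99, SE 0.26, adjusted p = 0.00438). Tm7sf2 went from 80.3 ± 4.73 to 70.4 ± 16 CPM and was not called (log2 fold change -0.19, SE 0.15, adjusted p = 0.296). Its LPS value rested on LPS replicate 3, at 88.5 CPM above every control, and without that liver it fell (-0.38, adjusted p = 0.02329). Per exon length Tm7sf2 was the more abundant in every liver, with a ratio to Lbr of 15.7, 9.64 and 19.1 in controls and 4.57, 4.74 and 10.5 in LPS livers. Those ratios overlapped between the groups.

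Of the 3 enzymes that strip the C4 methyl groups, 1 passed the test. Msmo1, the C4 methyl oxidase, had 40.3, 23.2 and 46.8 CPM in controls and 59.2, 47.2 and 46.4 CPM after LPS, with LPS replicate 3 just inside the control range. It missed the threshold (log2 fold change 0.47, SE 0.21, adjusted p = 0.0605) and passed it with limma voom (0.54), without the filter on low counts (0.44), with the replicate number as a block (0.52, adjusted p = 0.01208) and without control replicate 3 (0.67). Nsdhl, the C4 decarboxylating dehydrogenase, had 8.57 ± 2.14 and 10.9 ± 3.62 CPM (log2 fold change 0.35, adjusted p = 0.268). It passed the threshold without LPS replicate 2 (0.60, adjusted p = 0.04776). Hsd17b7, the ketoreductase of the same complex, rose 1.54-fold, from 64.7, 84.3 and 83.7 CPM to 125, 125 and 108 CPM with no overlap (log2 fold change 0.62, SE 0.13, adjusted p = 0.00122).

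The final enzymes included the clearest fall of the sterol segment. Sc5d (chromosome 9, 42251595 to 42264256), the lathosterol desaturase, had 165, 175 and 176 CPM in controls and 75, 61.2 and 64.5 CPM after LPS. The controls were tightly grouped and far above every LPS liver, and Sc5d fell 2.57-fold (log2 fold change -1.36, SE 0.12, adjusted p = 4.847e-07). Ebp, the sterol isomerase, was the most abundant sterol enzyme per exon length and fell 1.32-fold, from 122 ± 8.47 to 92.8 ± 10.4 CPM (log2 fold change -0.40, SE 0.13, adjusted p = 0.0135). That call ended without LPS replicate 2 (-0.31, adjusted p = 0.07514). Dhcr7, which reduces 7-dehydrocholesterol to cholesterol, went from 30.3, 19.1 and 28 CPM to 33.5, 33.4 and 39.9 CPM, a rise of 1.39-fold (log2 fold change 0.47, SE 0.17, adjusted p = 0.0253). It was lost without control replicate 2 (0.26, adjusted p = 0.1478), without LPS replicate 3 (0.39) and by library totals alone (0.40).

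**Figure D3:**
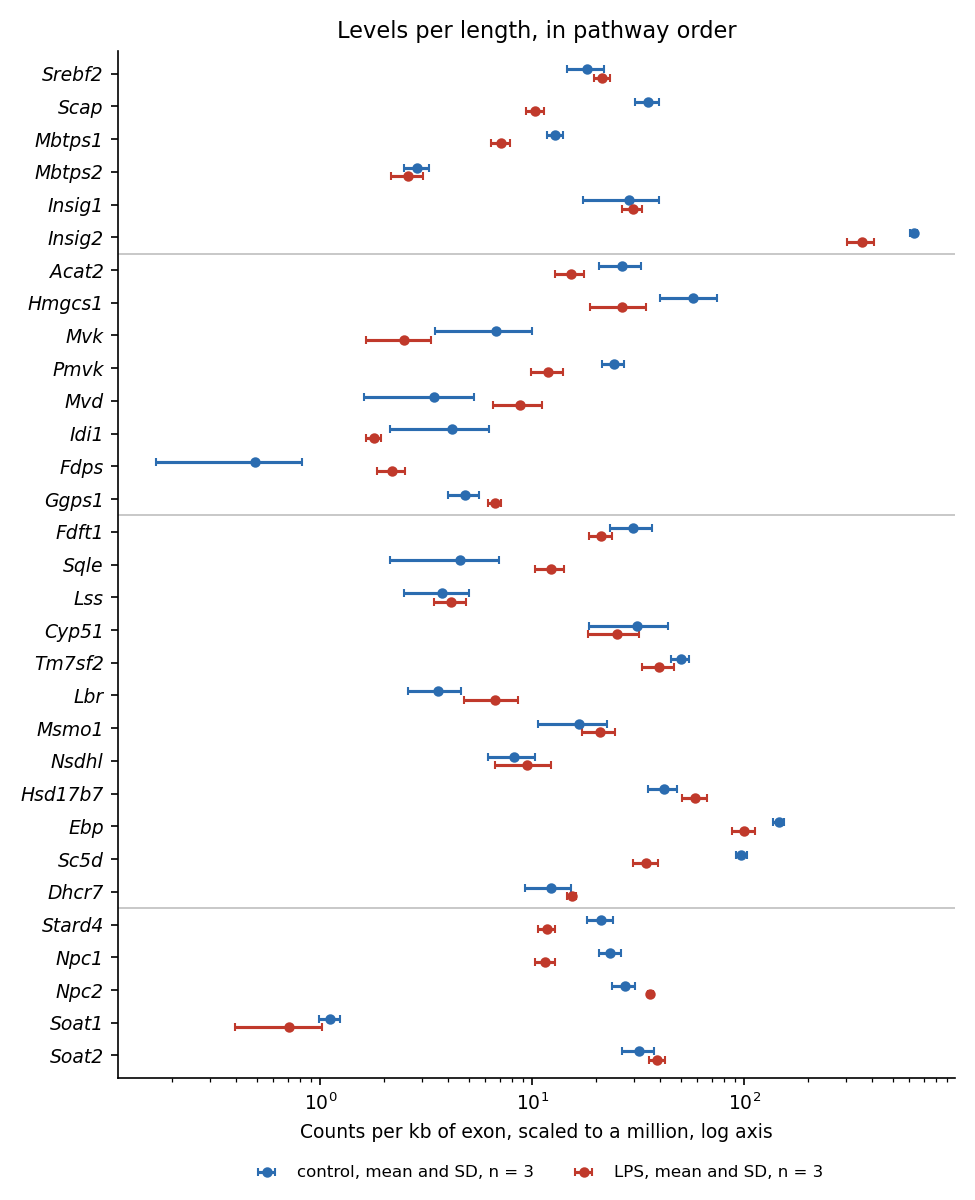
Level per exon length (counts per kb of exon scaled to the same total in each library, log axis) of the 31 genes in pathway order, as mean and SD over 3 control (blue) and 3 LPS (red) livers. Insig2 stands above all others in both groups, at 628 in controls, with Ebp (145) and Sc5d (96.9) next in controls, while Fdps and Soat1 are among the lowest. Lengths merge all annotated exons of a gene. The level of Fdps is uncertain, because most of its transcript has near-identical copies.

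Per exon length, the levels of the synthesis enzymes were very uneven. The length used is that of all annotated exons of a gene merged, such as 10787 bases for Lss and 2310 for Ebp. Such a length can exceed that of any single transcript, so the order of genes rests in part on annotation. In control livers Ebp stood at 145 ± 8.95, Sc5d at 96.9 ± 6.06, Hmgcs1 at 57 ± 17.2 and Tm7sf2 at 50 ± 4.71 scaled counts per kb of exon. At the other end were Fdps at 0.492 ± 0.324, Mvd at 3.44 ± 1.84, Lbr at 3.59 ± 1.01, Lss at 3.74 ± 1.26, Idi1 at 4.18 ± 2.05 and Sqle at 4.54 ± 2.41. The last 5 of these did not differ from each other beyond their spread. The low place of Fdps is uncertain, because 76.8% of its transcript has near-identical copies and the handling of such reads is not stated. After LPS, Sqle stood at 12.2 ± 1.93 and Mvd at 8.78 ± 2.27, while Hmgcs1 stood at 26.5 ± 7.71 and Sc5d at 34.4 ± 4.74. The summed level of the mevalonate enzymes on this scale was 127 ± 26.1 in controls and 75.4 ± 11.5 in LPS livers, and that of the sterol enzymes was 443 ± 42.7 and 348 ± 29.8. This scale does not use the normalisation behind the CPM values, on which the ranges of the sterol enzymes' sum overlapped between the groups.

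Of the 5 handling genes 2 fell and 2 rose, beside 31% and 31.3% of all tested genes, and 1 was not called. Npc1 and Npc2 work as a pair that takes cholesterol out of lysosomes, Npc2 as the soluble carrier and Npc1 as the membrane protein that receives it. They moved in opposite directions. Npc1 had 94.3, 89.4 and 105 CPM in controls and 48.7, 46.1 and 62.1 CPM after LPS, a 1.84-fold fall (log2 fold change -0.88, SE 0.14, adjusted p = 8.844e-05). Rmc1, on the opposite strand, shares part of the 5.31% of Npc1 exon bases that overlap other genes, and it fell as well, from 18.9 ± 0.635 to 8.96 ± 0.234 CPM (adjusted p = 5.162e-05). Npc2 had 48.3, 54.9 and 58.5 CPM in controls and 74.6, 78.2 and 82.4 CPM after LPS, a 1.45-fold rise (log2 fold change 0.54, SE 0.12, adjusted p = 0.0016). Neither gene's groups overlapped, and both calls held in all 14 alternative settings. The ratio of Npc2 to Npc1 per exon length was 1.07, 1.28 and 1.16 in controls and 3.19, 3.53 and 2.76 in LPS livers.

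Stard4, a cytosolic sterol carrier and SREBP-2 target, fell 1.62-fold, from 42.3, 38.4 and 47.3 CPM to 22.9, 27.7 and 28.2 CPM (log2 fold change -0.70, SE 0.14, adjusted p = 5.103e-04). Its groups did not overlap. The enzymes that esterify cholesterol are Soat2, the form of hepatocytes, and Soat1, the form found in most other cells, macrophages among them. Soat2 had 30.7, 22.1 and 24.6 CPM in controls and 31.1, 31.9 and 40.3 CPM after LPS, and its 1.34-fold rise (log2 fold change 0.42, SE 0.16, adjusted p = 0.0294) left control replicate 1 just below the LPS livers. By library totals alone the call was lost (0.35), as it was when control replicate 2 (0.29), control replicate 3 (0.37) or LPS replicate 3 (0.30) was left out. Soat1 was low throughout, at 3.98, 4.52 and 3.4 CPM in controls and 2.56, 3.94 and 1.71 CPM after LPS, and was not called (log2 fold change -0.54, SE 0.35, adjusted p = 0.198). Beside it, the summed Kupffer cell markers ran from 314 to 358.4 CPM in controls and from 82.12 to 132 CPM after LPS. Those of monocytes and recruited macrophages ran from 59.65 to 66.41 CPM and from 139.1 to 160.1 CPM, and their part in the levels of Soat1 and Npc2 was not tested.

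Among the synthesis enzymes the control livers were more spread than the LPS livers. Control replicate 2 was the lowest control in 20 of the 31 genes (64.5%), where it was lowest in 32.6% of all tested genes, and control replicate 3 was the highest in 17 (54.8%, beside 30%). Fdps spanned 5.13-fold between the highest and lowest control, Mvd 3.53-fold, Mvk 2.88-fold, Idi1 2.78-fold, Sqle 2.75-fold and Insig1 2.18-fold. In each of these 6 genes the lowest control was replicate 2. That library was also the deepest of the 6, with 20282004 counts, and the part of depth in these values was not tested. By contrast Insig2, Sc5d, Mbtps1 and Tm7sf2 spanned at most 1.13-fold. Over the 20 synthesis enzymes the median coefficient of variation was 25.9% in controls and 13.3% in LPS livers, and it was larger in controls for 15 of the 20 (75%). Over all tested genes the medians were 13.7% and 14.7%, and the controls were the more variable in 46.9%. These are descriptions of 3 livers a group, and the genes of a liver are not independent of each other.

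**Figure D4:**
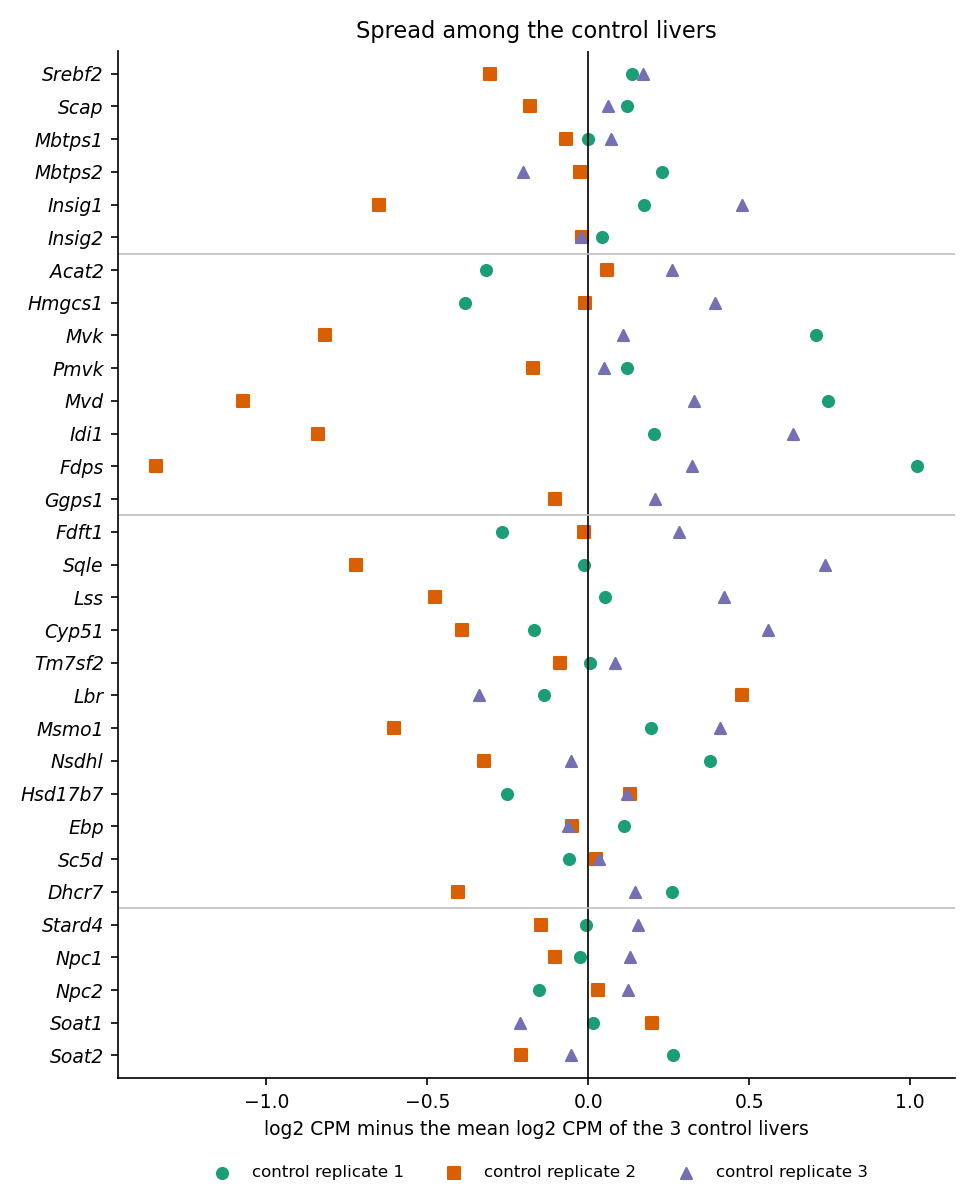
Log2 CPM of each gene in each of the 3 control livers minus the mean of the 3, in pathway order. Control replicate 2 (orange squares) lies farthest left for Insig1, Mvk, Mvd, Idi1, Fdps, Sqle and Msmo1, whereas the 3 livers nearly coincide for Insig2 and Sc5d.

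Other genes around the pathway came from 3 lists set by role, and no list was tested as a set. Over all tested genes 31.3% rose and 31% fell. Of 21 partners of sterol sensing, which include the vesicle coat that carries Scap and the Insig-linked degradation machinery, 8 rose and 8 fell. Their median log2 fold change was 0.07. The coat genes did not move one way: of 7 in the list 4 rose, 2 fell and 1 was not called. Those that fell were Sar1b, a GTPase that starts coat assembly (183 ± 19.5 to 72.3 ± 3.09 CPM, log2 fold change -1.34, SE 0.12), and Sec23a, a coat subunit (148 ± 5.51 to 73.3 ± 5.65 CPM, -1.02, SE 0.12). The other 5 are named after their values were seen. Sar1a, the paralog of Sar1b, rose from 97.1 ± 11.8 to 150 ± 17.7 CPM (log2 fold change 0.62, SE 0.14). Of the subunits that pick cargo, Sec24d (0.50), Sec24b (0.36) and Sec24a (0.31) rose and Sec24c was not called (0.07). The calls of Sec24a and Sec24b were each lost in 8 of the 14 alternative settings, while those of Sar1a, Sar1b, Sec23a and Sec24d held in all 14. Erlin1, an endoplasmic reticulum protein that binds cholesterol, fell from 40.3 ± 3.71 to 17.1 ± 0.292 CPM (log2 fold change -1.24, SE 0.13). The most abundant of the list, Pgrmc1, a haem-binding partner of cytochromes P450, fell from 738 ± 59.6 to 451 ± 41.1 CPM (log2 fold change -0.71, SE 0.13).

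Of 14 genes that use or attach isoprenoids 6 rose and 2 fell, beside 31.3% and 31% of all tested genes. Their median log2 fold change was 0.23. Zmpste24, a protease that processes farnesylated proteins, rose from 63 ± 3.97 to 115 ± 13.5 CPM (log2 fold change 0.87, SE 0.13) and was the most abundant. Nus1, a subunit of the enzyme that makes dolichol, rose from 62.1 ± 4.12 to 94.6 ± 5.53 CPM (log2 fold change 0.61, SE 0.12), while Rabggta, a subunit of the Rab prenylating enzyme, fell from 31.2 ± 5.89 to 19.5 ± 1.74 CPM (-0.67, SE 0.16).

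Of 19 tested genes of sterol traffic inside the cell 9 fell and 1 rose, beside 31% and 31.3% of all tested genes. Their median log2 fold change was -0.30. Stard5, a sterol-binding relative of Stard4, fell from 133 ± 1.37 to 52.8 ± 1.31 CPM (log2 fold change -1.33, SE 0.11), and Scp2, the sterol carrier of peroxisomes and the most abundant of the list, from 3561 ± 46.1 to 1169 ± 93.4 CPM (-1.61, SE 0.13). Lipa, the lysosomal lipase that frees the cholesterol handed to Npc2, fell from 307 ± 43.9 to 43.2 ± 4.19 CPM (log2 fold change -2.83, SE 0.15). Lipa and Npc1 thus fell in the same livers in which Npc2 rose.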

How the data were processed

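Per the submitters' processing notes, bcl2fastq 2.0, HISAT2, StringTie, DESeq2, limma and the build mm10 were used, without a statement of which made the tables. The authors deposited raw counts per gene, 1 table per library of 22488 fixed-width lines, with symbols and identifiers of up to 8 characters. The sources used here do not give the counting tool, annotation, strand setting or handling of reads with several matches. The 31 genes were matched by complete symbol, and all 31 Entrez identifiers gave the same symbol in RefSeq GRCm38.p6. The genes and lists were chosen with earlier results of these data known.

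Counts of all genes were compared in R 4.3.3 with edgeR 4.0.16 (TMM scaling, filterByExpr with minimum count 10 and minimum total 15, quasi-likelihood F test, 3 LPS against 3 control, threshold 0.05). Alternatives were other scalings, DESeq2 1.42.0, limma 3.58.1 (voom), other filters, the replicate number as a block, and each library left out, 14 in all. The scripts were tested on simulated data. No list was tested as a set. Exon lengths, overlaps and near-identical copies (at least 95% identity over 200 bases, blastn) came from GENCODE M21 on GRCm38, and promoters from RefSeq GRCm38.p6. All 31 genes are named, and from each of 3 other lists the 3 smallest adjusted p values and the highest mean CPM. Genes that overlap or copy one of the 31 were named after that was found, and 5 vesicle coat genes after their values were seen. Libraries of a group differed beyond sampling noise (chi-square per degree of freedom from 11.6 to 31.2), so each was counted as 1 sample. Precision is limited by the library totals of 11488525 to 20282004 counts and by 3 libraries a group.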

Additional observations from a re-analysis of the deposited data

How the results depend on the processing

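The count of the 31 genes that fell ran from 10 to 13 and that of risers from 6 (without control replicate 2) to 11 over the 14 alternatives. With each library left out, risers ran from 6 to 10, sensing risers from 0 to 1, mevalonate fallers from 3 to 5, sterol segment fallers from 1 to 3, handling risers from 1 to 2 and isoprenoid branch fallers from 1 to 3. By library totals alone there were 0 sensing and 1 handling risers, 7 risers of the 31 and a median over all tested genes of -0.05. Of the 23 called genes 15 (9 lower, 6 higher) kept their direction and their call in every alternative, and the other 8 lost the call in at least 1. Signs changed only in genes that were not called, and only with a library left out, over ranges of -0.14 to 0.10 for Mbtps2 (0.10 without control replicate 1, 0.02 without LPS replicate 2, 0.07 without LPS replicate 3), -0.08 to 0.45 for Insig1, -0.39 to 0.14 for Cyp51 and -0.01 (without control replicate 2) to 0.11 for Sec24c. The median of the 31 genes ran from -0.26 to -0.00. Where a call was lost with a library left out, fewer samples entered the fit; otherwise the cause was not tested. Same-numbered control and LPS libraries correlated at -0.000745, 0.104 and 0.0352 after subtracting group means, so the numbers were not taken as pairs. With the replicate block 11 of the 31 rose and 13 fell, Msmo1 being the added riser. Few counts limit Fdps, with as few as 5 in control replicate 2, which was the deepest of the 6 libraries.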
